A study of Mus musculus with 4 samples.

Results

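The genes described here are the nuclear-encoded subunits of the mitochondrial respiratory chain and ATP synthase, measured in single nuclei of 4 mouse hearts. They are every row of the count matrices whose symbol starts with Ndufa, Ndufb, Ndufc, Ndufs, Ndufv, Uqcr, Cox4 to Cox7 or Atp5, or is Sdha, Sdhb, Sdhc or Sdhd. The rule uses names and no measured value. It took 94 of 21884 rows, which were sorted into complexes by symbol alone. By symbol, 40 are complex I subunits, 8 are complex I assembly factors and 4 belong to complex II. Complex III has 8, complex V has 18 and complex IV has 16, among them Cox5b-ps with 13 UMIs. Of the 94 rows, 93 held at least 10 UMIs (unique molecular identifiers, each counting 1 captured RNA molecule) over all nuclei. Ndufb11b held 1 UMI and is left out of all ratios. The symbol Atp5o stands for 2 rows with different gene identifiers, so the members carry 93 distinct symbols.

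Every heart came from a male C57BL/6J mouse of wild-type genotype that was itself injured at day 1 after birth, and was collected 21 days after that injury. The father had a cardiac injury for 2 hearts (injured-father hearts) and had none for the other 2 (uninjured-father hearts). Whole hearts were snap frozen, Ter119-positive blood cells were excluded by sorting, and each heart gave 1 droplet library read at the 3′ end of transcripts, with a target of 10000 nuclei. There is no uninjured offspring among these samples, and the labels do not tie hearts to fathers or litters, so p-values measure only the spread between these hearts.

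The respiratory chain passes electrons from NADH (through complex I) and from succinate (through complex II, which is also an enzyme of the citric acid cycle) by way of ubiquinone, complex III and cytochrome c to oxygen at complex IV, and complex V uses the proton gradient so built to make ATP. Most subunits are encoded in the nucleus, while mitochondrial DNA encodes a small part of complexes I, III, IV and V and none of complex II. Heart muscle cells are packed with mitochondria and draw most of their ATP from this chain. The matrices hold RNA from nuclei, so a level is RNA found with a nucleus and says nothing of protein or of the number of mitochondria.

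After filters on depth, mitochondrial UMIs and doublets, 8251 and 9537 nuclei remained in the injured-father hearts and 9416 and 6791 in the uninjured-father hearts. The library totals were 23551067 and 32862239 UMIs against 31467616 and 15651493 UMIs. Uninjured-father heart 2 was the shallowest library, with a median of 1860 UMIs per nucleus, and had the highest share of marked doublets (14.9%, against 9.62% to 9.93% in the other 3). Pairs of libraries shared 23 to 33 barcodes, at most 0.403% of the smaller library. Nuclei were clustered without the 94 members and without the mitochondrially encoded genes, and clusters were named by likeness to marker lists. The 8 classes with at least 50 nuclei in every heart were used. The sum of the 12 cardiomyocyte markers was 10.5 times higher in cardiomyocyte-like nuclei than in the mean of the other 7 classes. Markers named the clusters, so this is no test of the names. Single markers had a median log2 ratio of 2.73, and the lowest was 0.24. Adipocyte-like nuclei (173 and 112 in injured-father hearts, 16 and 7 in uninjured-father hearts) were too few in 2 hearts to be used.

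Cardiomyocyte-like nuclei held the highest summed level of these genes among the 8 classes in every heart. All members together reached 5226 and 5874 CPM (the members' UMIs per 1000000 UMIs of the class in that heart) in the injured-father hearts and 5136 and 6355 CPM in the uninjured-father hearts. The mean over 4 hearts was 5648 ± 575 CPM (SD, n = 4). It was 4443 ± 434 CPM in pericyte-like, 4367 ± 680 CPM in smooth muscle-like, 3954 ± 366 CPM in vascular endothelial-like and 3863 ± 480 CPM in B lymphocyte-like nuclei. The lowest means were 3424 ± 218 CPM in macrophage or monocyte-like, 2828 ± 296 CPM in endocardial-like and 2786 ± 197 CPM in fibroblast-like nuclei. The order of neighbours such as pericyte-like and smooth muscle-like, or endocardial-like and fibroblast-like, is within the spread between hearts. Adipocyte-like nuclei, outside the 8 classes, stood at 5826 ± 650 CPM, from 5583 member UMIs in all. Their mean was above that of cardiomyocyte-like nuclei. Within each heart the cardiomyocyte-like sum was higher than the mean of the other 7 classes by 0.62 ± 0.07 on the log2 scale (SD, n = 4), or 1.54-fold. Differences between classes are given as descriptions, since the classes were made from the same nuclei.

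**Figure D1:**
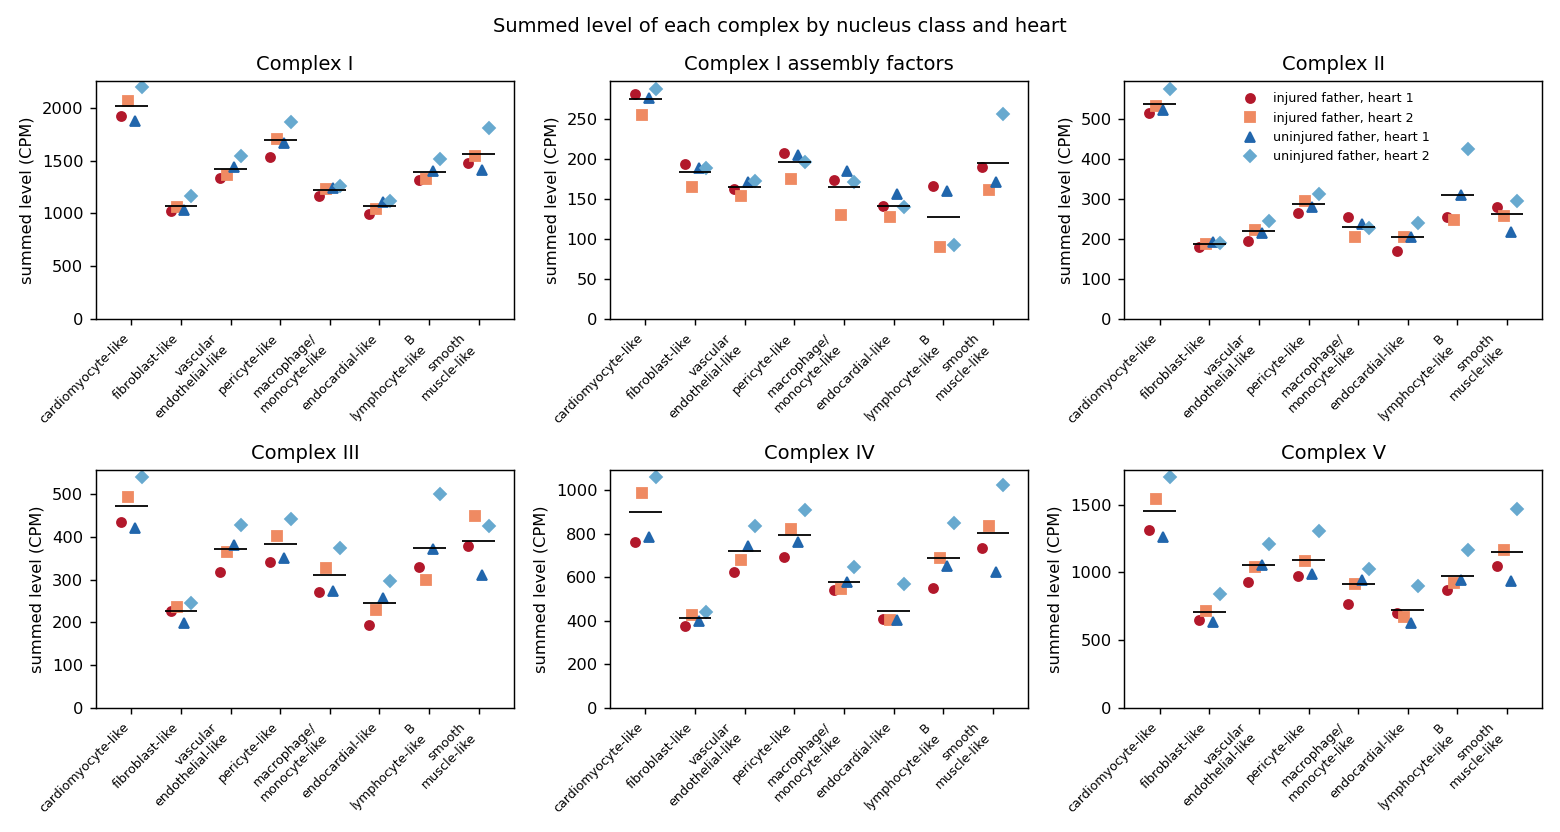
Summed level of the members of each complex (CPM, linear axis from 0) in the 8 classes of nuclei, with 1 point per heart and a line at the mean of 4 hearts. The 4 cardiomyocyte-like points of complex II lie between 514 and 574 CPM, above every point of the other classes shown. Adipocyte-like nuclei are not shown.

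Complex II stood furthest apart among the 5 complexes. Its 4 subunits together had 514 and 533 CPM in cardiomyocyte-like nuclei of the injured-father hearts and 523 and 574 CPM in those of the uninjured-father hearts. The other classes used had means between 187 CPM in fibroblast-like and 310 CPM in B lymphocyte-like nuclei. Adipocyte-like nuclei, not among the classes used, had 502 and 415 CPM in injured-father hearts and 705 and 473 CPM in uninjured-father hearts. Their mean of 523 ± 126 CPM lay near the 536 ± 27 CPM of cardiomyocyte-like nuclei. The log2 ratio of cardiomyocyte-like nuclei to the mean of the other classes was 1.14 ± 0.06, or 2.21-fold. It was 0.58 ± 0.06 for complex I, 0.52 ± 0.06 for complex III, 0.49 ± 0.11 for complex IV and 0.62 ± 0.09 for complex V, and each of these ratios was above 0 in 4 of 4 hearts. The lowest single-heart ratio of complex II was above the highest single-heart ratio of each other complex.

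Gene by gene, 60 of the 93 members were higher in cardiomyocyte-like nuclei than in the mean of the other classes in 4 of 4 hearts (64.5%), and 10 were lower in 4 of 4 (10.8%). Of all 16473 genes with at least 10 UMIs, 18.8% were higher and 59.2% were lower in 4 of 4 hearts. The median log2 ratio was 0.38 over the members and -0.49 over all genes on the same scale, so the members are read against that shift. Ratios of single genes are on the log2(CPM + 1) scale, which understates the ratio of low genes. By complex, the members higher in 4 of 4 hearts were 25 of 39 in complex I, 4 of 8 assembly factors, 4 of 4 in complex II, 4 of 8 in complex III, 11 of 16 in complex IV and 12 of 18 in complex V. Those lower in 4 of 4 were 3 in complex I, 3 assembly factors, 1 in complex III, 2 in complex IV and 1 in complex V. The class with the highest mean level was cardiomyocyte-like for 43 members, pericyte-like and smooth muscle-like for 16 each, B lymphocyte-like and vascular endothelial-like for 7 each, macrophage or monocyte-like for 3 and fibroblast-like for 1.

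**Figure D2:**
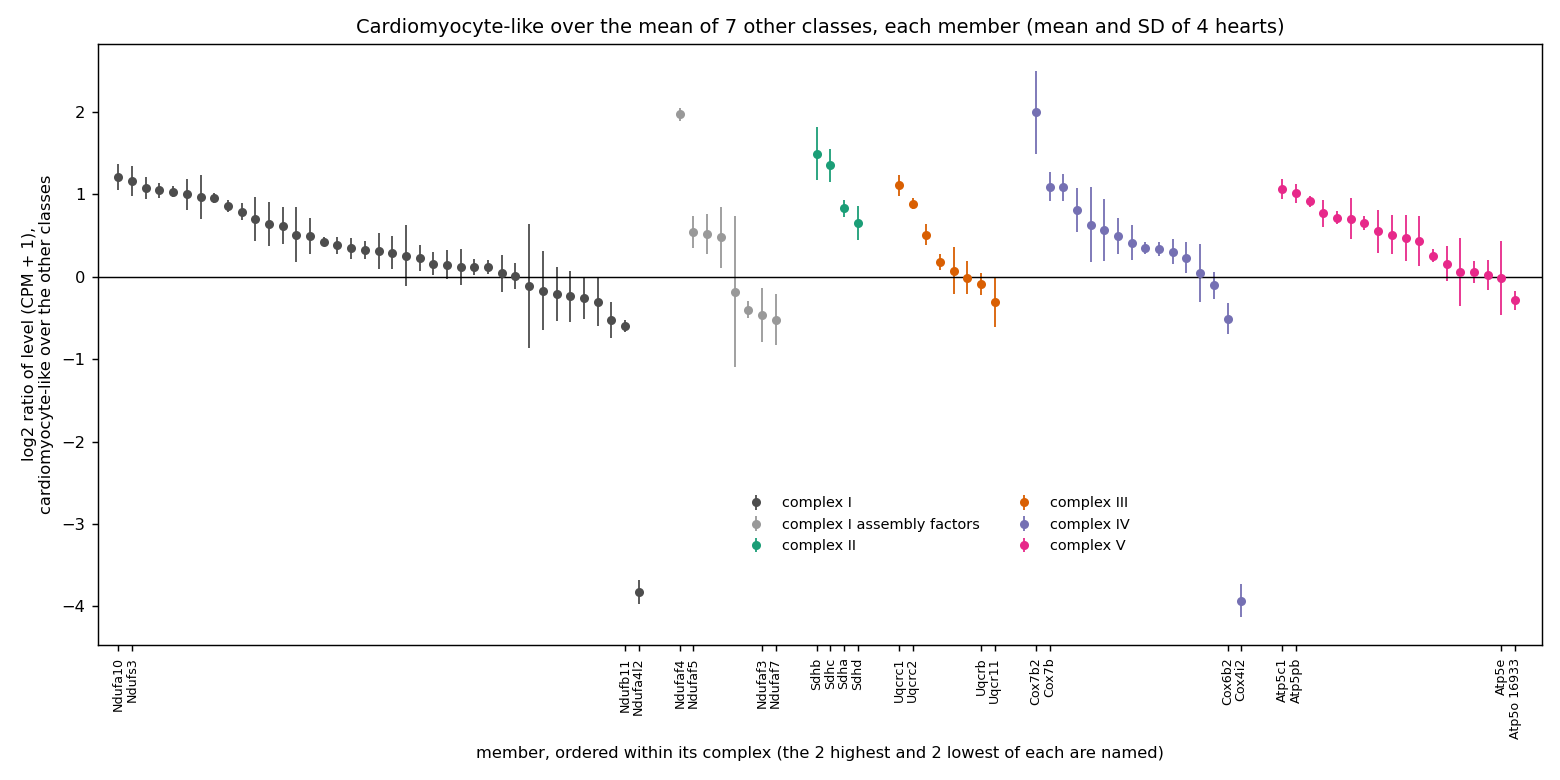
Log2 ratio of cardiomyocyte-like nuclei to the mean of the other 7 classes for each of 93 members, on the log2(CPM + 1) scale and grouped by complex, with points at the mean of 4 hearts, error bars of 1 SD, and the 2 highest and 2 lowest members of each complex named. The 4 complex II subunits all lie above 0, while Cox4i2 and Ndufa4l2 lie below -3.5.

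In complex I, Ndufs1, the largest iron-sulfur subunit of the arm that takes electrons from NADH, had 189.1, 185.3, 197.2 and 211.9 CPM in cardiomyocyte-like nuclei of the 4 hearts and 85.9, 95.9, 98.4 and 97.0 CPM in the mean of the other classes. Its log2 ratio was 1.05 ± 0.09. Ndufv1, the subunit that binds NADH and FMN, had 31.1, 44.5, 36.6 and 58.7 CPM against 14.8, 20.1, 17.2 and 30.04 CPM, a log2 ratio of 1.03 ± 0.07. For both genes every cardiomyocyte-like value was above every heart's mean of the other classes.
The core iron-sulfur subunits near the ubiquinone site were less uniform. Ndufs7 had a log2 ratio of 0.31 ± 0.22 and was higher in 4 of 4 hearts. Ndufs8 was lower in 3 of 4 hearts, with a log2 ratio of -0.30 ± 0.30 at 4.24 to 9.60 CPM in cardiomyocyte-like nuclei. The highest ratio of the complex I subunits was that of Ndufa10, an accessory subunit of the membrane arm, at 1.21 ± 0.16. It had 122.1, 122.7, 110.6 and 130.6 CPM in cardiomyocyte-like nuclei and 48.6, 47.8, 47.8 and 64.8 CPM in the other classes. Ndufs3, a core subunit of the peripheral arm, followed at 1.16 ± 0.18, and Ndufa9, an accessory subunit at the junction of the arms, at 1.08 ± 0.14. The 3 subunits lower in 4 of 4 hearts were Ndufa4l2, Ndufb11 (-0.60 ± 0.07) and Ndufa2 (-0.52 ± 0.22). Ndufb11, a membrane-arm subunit, had 10.1 to 15.7 CPM in cardiomyocyte-like nuclei and 16.5 to 23.8 CPM in the other classes. Its position on the X chromosome overlaps Rbm10 on the opposite strand, and no source used here says whether strand was used in counting.

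The assembly factors of complex I differed among themselves. Ndufaf4, which takes part in early assembly of the complex, had the highest ratio of any member with more than 1000 UMIs. It had 142.0, 120.5, 141.5 and 151.5 CPM in cardiomyocyte-like nuclei and 37.9, 29.2, 36.2 and 35.7 CPM in the mean of the other classes, a log2 ratio of 1.97 ± 0.08. The lowest cardiomyocyte-like value was more than 3 times the highest of these means, and the next class by its mean stood 2.84-fold below. Ndufaf5 had a log2 ratio of 0.54 ± 0.20, Ndufaf6 of 0.52 ± 0.24 and Ndufaf1 of 0.48 ± 0.37, each higher in 4 of 4 hearts. Ndufaf7, a methyltransferase, was lower in 4 of 4 hearts at -0.52 ± 0.31, as were Ndufaf3 (-0.46 ± 0.33, at 0.614 to 1.42 CPM in cardiomyocyte-like nuclei) and Ndufaf2 (-0.40 ± 0.10). Ndufaf8 had no common direction (-0.18 ± 0.92).

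The 4 subunits of succinate dehydrogenase were all higher in cardiomyocyte-like nuclei of 4 of 4 hearts. Sdhb, the iron-sulfur subunit, had 162.7, 151.9, 161.1 and 172.3 CPM in cardiomyocyte-like nuclei and 52.3, 43.7, 54.8 and 83.9 CPM in the mean of the other classes, a log2 ratio of 1.49 ± 0.32. Sdhc, which with Sdhd anchors the enzyme in the inner membrane, had 140.9, 165.3, 151.3 and 161.2 CPM against 64.6, 53.7, 58.7 and 63.4 CPM, a log2 ratio of 1.35 ± 0.20. Each cardiomyocyte-like value of these genes lay above all 4 means of the other classes.
Sdha, the flavoprotein that oxidises succinate, had 187.3, 191.5, 188.5 and 213.1 CPM against 96.7, 117.3, 108.8 and 115.5 CPM, a log2 ratio of 0.83 ± 0.11. Sdhd had 23.2, 24.6, 21.9 and 27.5 CPM against 15.3, 16.8, 14.6 and 13.6 CPM, a log2 ratio of 0.65 ± 0.21. Sdhd was the only one of the 4 whose highest class was another one, B lymphocyte-like nuclei. That place rests on few UMIs, since all of complex II held 221 UMIs in those nuclei. These levels are set against the same gene in other classes and not against other genes, since unspliced RNA scales with the length of a gene.

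In complex III, the core proteins were higher in cardiomyocyte-like nuclei and several small subunits were not. Uqcrc1, a core protein of the matrix side, had 96.7, 98.4, 92.6 and 114.0 CPM in cardiomyocyte-like nuclei and 43.7, 43.1, 39.6 and 59.6 CPM in the mean of the other classes, a log2 ratio of 1.11 ± 0.13. Uqcrc2, its partner, had 140.2, 144.1, 130.6 and 147.8 CPM against 74.8, 72.7, 73.0 and 82.2 CPM, a log2 ratio of 0.89 ± 0.07. For each gene the 4 cardiomyocyte-like values stood above the 4 means of the other classes. Uqcrfs1, the Rieske iron-sulfur protein, had a log2 ratio of 0.07 ± 0.28 with 2 hearts in each direction. Uqcrb had -0.09 ± 0.13, and Uqcr11 was lower in 4 of 4 hearts at -0.31 ± 0.30.

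In complex IV, Cox5a, which binds the matrix side of the enzyme, had 100.1, 94.6, 92.9 and 100.5 CPM in cardiomyocyte-like nuclei and 39.9, 49.7, 45.3 and 46.1 CPM in the other classes, a log2 ratio of 1.09 ± 0.16. Cox7b had 86.3, 116.6, 102.2 and 127.5 CPM against 43.7, 47.5, 43.8 and 66.6 CPM, the same ratio of 1.09 ± 0.17. Cox5b, the zinc-binding subunit, differed little between the sets, at -0.10 ± 0.16 with 3 of 4 hearts lower.
In complex V, the alpha, beta and gamma subunits of the catalytic head were higher in 4 of 4 hearts. Atp5c1, the central gamma shaft, had 220.2, 218.6, 198.9 and 225.4 CPM in cardiomyocyte-like nuclei and 92.1, 108.5, 96.7 and 113.2 CPM in the other classes, a log2 ratio of 1.07 ± 0.12. Atp5a1, the alpha subunit, had 203.3, 211.9, 188.8 and 279.3 CPM against 101.1, 112.9, 100.4 and 154.6 CPM, a log2 ratio of 0.91 ± 0.06. Atp5b, the beta subunit that holds the catalytic sites, had a log2 ratio of 0.66 ± 0.08. Atp5pb, of the peripheral stalk, had 1.01 ± 0.12. Atp5e, the small epsilon subunit, had -0.02 ± 0.44. The 1 member of complex V lower in 4 of 4 hearts was the Atp5o row that spans 242585 bases of chromosome 16 (-0.29 ± 0.12). That row overlaps Donson, Cryzl1 and the other Atp5o row on its own strand and Itsn1 on the opposite one, so its counts may hold reads of those genes. The Atp5o row of 6474 bases had a log2 ratio of 0.26 ± 0.08.

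Promoter windows from the RefSeq table for build GRCm38.p6, each of 250 bases before and 50 bases after a gene start, were found for 75 of the 94 members (80 windows). The windows below are shown because they belong to the members with the highest ratio of complex I assembly factors (Ndufaf4), complex II (Sdhb) and complex III (Uqcrc1), and to the member with the lowest ratio (Ndufb11), all among members with more than 1000 UMIs. Each is written 5′ to 3′ on the strand of the gene, and capitals mark a match to a motif searched. The Ndufaf4 window lies at chr4:24897833-24898132 on the plus strand, that of Sdhb at chr4:140961021-140961320 on the plus strand, that of Uqcrc1 at chr9:108936398-108936697 on the plus strand, and that of Ndufb11 at chrX:20617570-20617869 on the minus strand.
Ndufaf4: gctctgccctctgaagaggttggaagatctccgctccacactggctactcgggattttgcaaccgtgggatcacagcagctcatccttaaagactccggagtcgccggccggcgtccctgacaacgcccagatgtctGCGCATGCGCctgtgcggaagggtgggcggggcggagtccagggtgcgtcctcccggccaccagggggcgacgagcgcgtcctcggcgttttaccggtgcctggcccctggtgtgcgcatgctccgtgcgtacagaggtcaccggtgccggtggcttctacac
Sdhb: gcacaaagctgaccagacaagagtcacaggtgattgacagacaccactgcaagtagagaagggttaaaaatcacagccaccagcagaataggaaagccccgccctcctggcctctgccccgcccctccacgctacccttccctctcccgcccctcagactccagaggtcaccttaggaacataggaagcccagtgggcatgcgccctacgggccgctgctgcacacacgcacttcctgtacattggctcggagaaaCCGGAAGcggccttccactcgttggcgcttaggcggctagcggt
Uqcrc1: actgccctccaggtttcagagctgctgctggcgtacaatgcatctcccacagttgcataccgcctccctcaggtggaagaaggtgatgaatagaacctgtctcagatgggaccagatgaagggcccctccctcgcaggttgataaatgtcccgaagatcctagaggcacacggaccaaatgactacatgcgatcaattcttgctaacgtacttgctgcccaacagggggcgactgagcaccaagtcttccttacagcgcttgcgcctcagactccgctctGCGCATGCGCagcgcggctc
Ndufb11: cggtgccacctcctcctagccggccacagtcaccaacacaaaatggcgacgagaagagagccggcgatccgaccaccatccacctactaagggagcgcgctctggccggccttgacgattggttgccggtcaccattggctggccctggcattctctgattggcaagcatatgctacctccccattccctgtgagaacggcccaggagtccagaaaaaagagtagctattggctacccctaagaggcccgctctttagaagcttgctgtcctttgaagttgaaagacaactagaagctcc

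Motifs were searched by exact letters on both strands. NRF1 and the ETS factor GABP are known to bind promoters of many respiratory genes. The NRF1 letters GCGCATGCG stood in 10 of 80 member windows (12.5%) and in 1.75% of all 32851 windows of the table, and the capitals in Ndufaf4 and Uqcrc1 are matches on both strands that overlap each other. The ETS letters CCGGAAG, in capitals in Sdhb, stood in 18 member windows (22.5%) and in 8.86% of all windows. The YY1 letters AAGATGGCG stood in 8 member windows and in 1.4% of all, and the ERR letters TNAAGGTCA in 3 (3.75%) and 1.28% of all. The MEF2 motif stood in none of the member windows and in 0.557% of all windows. The Ndufb11 window held none of these letters. Nor did the windows of Ndufa10, Cox7b and Atp5c1, the highest-ratio members with more than 1000 UMIs in complexes I, IV and V. The median log2 ratio was 0.58 over the 10 members with the NRF1 letters and 0.41 over the 65 without, 0.50 over the 18 with the ETS letters and 0.38 over the 57 without, and 0.39 over the 8 with the YY1 letters and 0.48 over the 67 without. A match is a string of letters in a window and does not show that a factor binds there.

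Among subunits that have paralogs, Cox4i2 and Ndufa4l2 were highest in pericyte-like nuclei in every heart. Cox4i2, the alternative form of the complex IV subunit encoded by Cox4i1 and known to respond to low oxygen, had 113.4 and 116.9 CPM in pericyte-like nuclei of the injured-father hearts and 140.3 and 159.5 CPM in those of the uninjured-father hearts. It had 26.5 and 34.9 CPM, against 42.1 and 40.1 CPM, in smooth muscle-like nuclei. In cardiomyocyte-like nuclei it stood at 0.805 and 0.677 CPM against 0.614 and 1.17 CPM, so the cardiomyocyte-like and pericyte-like values did not come near each other. Means were 132.5 ± 21.6 CPM in pericyte-like, 35.9 ± 7.0 CPM in smooth muscle-like, 6.17 CPM in vascular endothelial-like, 5.19 CPM in macrophage or monocyte-like, 3.51 CPM in fibroblast-like, 2.14 CPM in B lymphocyte-like, 1.79 CPM in endocardial-like and 0.816 ± 0.247 CPM in cardiomyocyte-like nuclei (SD, n = 4). The gene lies at chr2:152754173-152765037 (GRCm38, plus strand) and overlaps no other annotated gene.
Of the UMIs of Cox4i1 and Cox4i2 together, Cox4i2 held 58.1 ± 5.63% in pericyte-like nuclei. Pooled over the 4 hearts the share was 58.0%, with a 95% Wilson interval of 55.3% to 60.7% that covers counting error only. The share was 24.9 ± 8.46% in smooth muscle-like nuclei and 0.681 ± 0.0818% in cardiomyocyte-like nuclei. Cox4i1 itself differed much less, at 118.4 CPM in cardiomyocyte-like, 98.0 CPM in pericyte-like, 119.6 CPM in smooth muscle-like and 56.6 CPM in fibroblast-like nuclei.

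Ndufa4l2, the paralog of Ndufa4 and a known target of hypoxia-inducible factor, was likewise highest in pericyte-like and next in smooth muscle-like nuclei. It is counted with complex I by its symbol, although Ndufa4 protein is known as a component of complex IV. It had 71.7 and 108.7 CPM in pericyte-like nuclei of the injured-father hearts and 121.5 and 140.5 CPM in those of the uninjured-father hearts. It had 34.1 and 56.7 CPM, against 17.3 and 55.1 CPM, in smooth muscle-like nuclei. Fibroblast-like nuclei had a mean of 7.56 CPM, and in cardiomyocyte-like nuclei it was 0.302 and 0.813 CPM against 0.921 and 1.04 CPM. Ndufa4l2 held 77.9 ± 7.84% of the UMIs of the pair in pericyte-like, 40.7 ± 11.9% in smooth muscle-like, 19.4 ± 2.72% in fibroblast-like and 1.54 ± 0.627% in cardiomyocyte-like nuclei. In B lymphocyte-like nuclei it held 0 of 41 UMIs of the pair, which allows a share of up to 8.57% (95% Wilson interval). Ndufa4 was at 30.1 ± 9.82 CPM in pericyte-like nuclei and 48.8 ± 6.05 CPM in cardiomyocyte-like nuclei. The gene at chr10:127514967-127517154 overlaps Shmt2 on the opposite strand.
Across the 32 combinations of class and heart, the genes whose log2 levels were most like those of Cox4i2 were Rgs4 (Pearson r 0.96), Ano1 (0.94), Rgs5 (0.93), Lin7a (0.92) and Vtn (0.91). Rgs4, Rgs5 and Vtn are on the list of markers that named the pericyte-like class. For Ndufa4l2 they were Dtx3 (0.94), Sorcs1 (0.92), Shc3 (0.92), Ajuba (0.91) and Ppp1r14a (0.91). Between Cox4i2 and Ndufa4l2 the r was 0.85, which put Ndufa4l2 at rank 39 for Cox4i2 and Cox4i2 at rank 77 for Ndufa4l2. The combinations share hearts and libraries, so these values are descriptions.

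**Figure D3:**
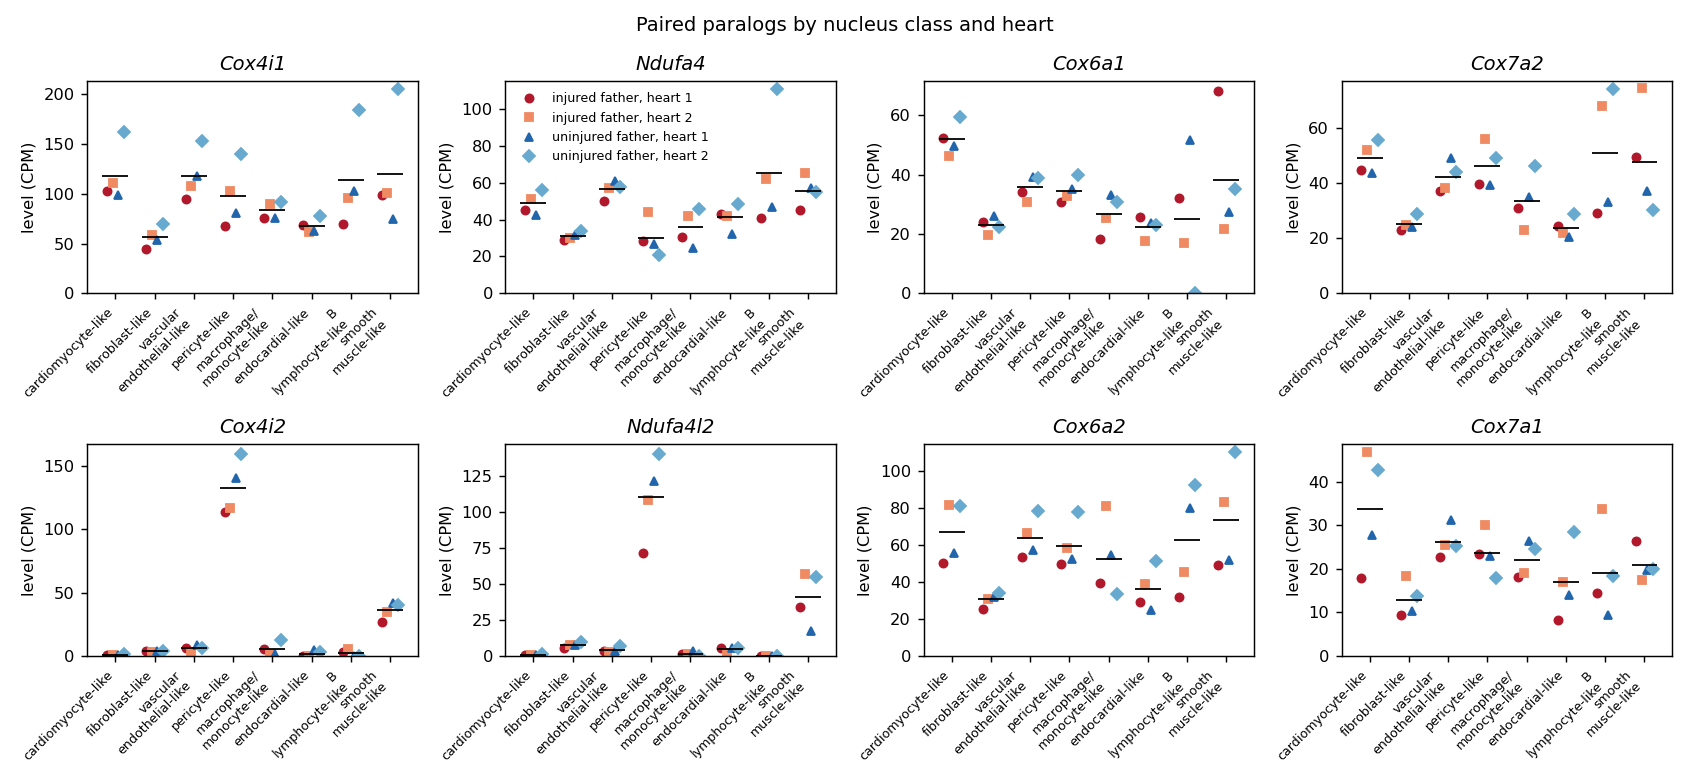
Level (CPM, linear axis from 0) of 4 pairs of paralogs in the 8 classes, the common form in the upper row and the alternative form in the lower row, with 1 point per heart and a line at the mean. Cox4i2 and Ndufa4l2 stand at 113.4 to 159.5 and 71.7 to 140.5 CPM in pericyte-like nuclei and at most 1.17 CPM in cardiomyocyte-like nuclei, while Cox6a2 is found in every class.

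The paralogs known as heart and muscle forms did not separate the classes in this way. Cox6a1, the common form, had a log2 ratio of 0.81 ± 0.26, and Cox6a2, the muscle form of the subunit, had 0.30 ± 0.15. Cox6a2 held 55.8 ± 6.4% of the UMIs of Cox6a1 and Cox6a2 in cardiomyocyte-like nuclei. The share was 57.0 ± 4.67% in fibroblast-like, 63.9 ± 4.43% in vascular endothelial-like and 63.0 ± 2.77% in pericyte-like nuclei. Cox6a2 had 50.4 and 81.6 CPM in cardiomyocyte-like nuclei of the injured-father hearts and 55.4 and 81.1 CPM in those of the uninjured-father hearts. Its mean was 73.6 CPM in smooth muscle-like, 63.8 CPM in vascular endothelial-like and 30.5 CPM in fibroblast-like nuclei. Cox7a1, the muscle form beside Cox7a2, held 39.7 ± 8.08% of the pair in cardiomyocyte-like nuclei and means of 27.2% to 40.2% in the other classes.
Cox7b2, an alternative form of Cox7b, had 2.82 and 6.77 CPM in cardiomyocyte-like nuclei of the injured-father hearts and 5.16 and 4.28 CPM in those of the uninjured-father hearts. In the mean of the other classes it had 0.106 and 0.586 CPM against 0.0887 and 1.01 CPM, a log2 ratio of 1.99 ± 0.50 over the 4 hearts. It held 4.18 ± 1.16% of the UMIs of Cox7b and Cox7b2 in cardiomyocyte-like nuclei (245 of 5473 UMIs) and 0 of 301 in pericyte-like nuclei, which allows up to 1.26%. Cox6b2 held 0.807% of its pair in cardiomyocyte-like and 3.67 ± 1.47% in fibroblast-like nuclei. Of the 3 genes for subunit c of complex V, which make the same mature protein, Atp5g1 held 35.9 ± 4.96% in cardiomyocyte-like nuclei and means of 20.8% to 28.1% in the other classes. Atp5g2 held 24.0 ± 1.68% in cardiomyocyte-like and 35.1 ± 1.5% in endocardial-like nuclei. Atp5g3 held 40.2 ± 4.22% in cardiomyocyte-like and 53.8 ± 3.42% in pericyte-like nuclei.

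RNA of cardiomyocyte marker genes was found in every class. In the other 7 classes the 12 cardiomyocyte markers stood at a median of 8.97% to 22.5% of their cardiomyocyte-like level, and Ttn at 4.36% to 9.20%. The highest marker of a class stood at 41.5% (Actc1, B lymphocyte-like) to 175% (Myl7, smooth muscle-like). Myl7 was at 11.9 CPM in cardiomyocyte-like nuclei. The 93 members stood at a median of 55.0% to 85.8%. At or under the highest marker of the class stood 8 members in B lymphocyte-like and 88 in smooth muscle-like nuclei, with the other classes between. Cox6a2 stood at 45.4% in fibroblast-like, 95% in vascular endothelial-like and 109.6% in smooth muscle-like nuclei. The part of RNA from cardiomyocytes in the members' levels of the other classes was not tested.

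The mitochondrially encoded subunits went the other way. All 13 measured were lower in cardiomyocyte-like nuclei than in the mean of the other classes in 4 of 4 hearts, and their sum had a log2 ratio of -2.06 ± 0.21. Mitochondrial transcripts are made outside the nucleus, and their share is a common measure of RNA that came from outside the nucleus. They made up 0.244% and 0.241% of the UMIs of cardiomyocyte-like nuclei in the injured-father hearts and 0.201% and 0.273% in the uninjured-father hearts. The share was 0.952% and 0.852% against 0.996% and 1.15% in fibroblast-like nuclei and 1.89% and 1.38% against 1.87% and 1.67% in endocardial-like nuclei. Per nucleus, cardiomyocyte-like nuclei held 12.01 ± 1.78 mitochondrial UMIs and 28.4 ± 4.64 member UMIs. Fibroblast-like nuclei held 24.4 and 6.94, and endocardial-like nuclei 49.1 and 8.07. The cytoplasmic ribosome genes were also lower in cardiomyocyte-like nuclei, with 84 of 94 lower in 4 of 4 hearts and a log2 ratio of the sum of -1.14 ± 0.32.

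Within cardiomyocyte-like nuclei the members' level differed with the mitochondrial share, and by different amounts in different complexes. In the 287 nuclei with more than 1% mitochondrial UMIs, the members' sum as CPM of non-mitochondrial UMIs was higher than in the 9112 nuclei with up to 1% by 0.85 ± 0.18 on the log2 scale, in 4 of 4 hearts. The 58 nuclei with no mitochondrial UMI belong to neither set. The difference was 1.17 ± 0.36 for complex IV, 1.05 ± 0.15 for complex V, 1.03 ± 0.16 for complex III and 0.73 ± 0.16 for complex I. It was 0.22 ± 0.08 for complex II and 0.01 ± 0.17 for the assembly factors. Cytoplasmic ribosome genes differed by 0.98 ± 0.28 and the cardiomyocyte markers by -0.10 ± 0.04. The same split gave 1.24 for all members in smooth muscle-like, 0.74 in vascular endothelial-like and 0.21 in fibroblast-like nuclei.
With the limit on mitochondrial UMIs set to 1% in place of 5%, the ratio of cardiomyocyte-like nuclei to the other classes was 0.78 for all members, and with no limit it was 0.51. The part of cytoplasmic RNA in the class differences was not otherwise tested.

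Gene length also went with the ratio. The members span a median of 7456 bases, against 25251 bases over all protein-coding genes with at least 10 UMIs, and a median of 24.3% of a member's span is exonic. Across the 93 members, Spearman's rho between span and the log2 ratio of cardiomyocyte-like nuclei to the other classes was 0.51, given as a description since the genes share libraries. The 46 members with the longer spans had a log2 ratio of their sum of 0.76 ± 0.06, and the 47 with the shorter spans had 0.39 ± 0.11. Of these, 36 and 24 were higher in 4 of 4 hearts.

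Other genes of mitochondrial energy metabolism were set beside the members. The sum of the citric acid cycle genes had a log2 ratio of 1.31 ± 0.04, and 15 of 17 were higher in cardiomyocyte-like nuclei in 4 of 4 hearts and none was lower. They include Idh3a (1.75), a subunit of NAD-dependent isocitrate dehydrogenase. The ubiquinone and electron entry list had 0.87 ± 0.05, with 12 of 18 higher and 3 lower, among them Coq8a (2.60), a kinase-like protein of ubiquinone synthesis, and Gpd2 (-1.26), the glycerol phosphate dehydrogenase of the inner membrane. The assembly factors outside the rule had 0.80 ± 0.07.
The regulators of respiratory genes split. The coactivator Ppargc1a (2.99 ± 0.06) and the nuclear receptors Esrrg (3.0), Esrrb (3.49), Ppara (3.36) and Esrra (1.93) were higher. Nrf1 (-1.14 ± 0.12), Yy1 (-1.03) and Tfam (-0.59), which controls mitochondrial DNA transcription, were lower. In all, 10 of 19 regulators were higher and 9 lower in 4 of 4 hearts. Mitochondrial ribosome genes were mixed (22 of 78 higher, 25 lower, log2 ratio of the sum 0.27 ± 0.08). Cyc1, the cytochrome c1 subunit of complex III whose symbol lies outside the rule, had 0.87 ± 0.34, and Atpif1, the inhibitor of ATP synthase, had -0.35 ± 0.25.

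**Figure D4:**
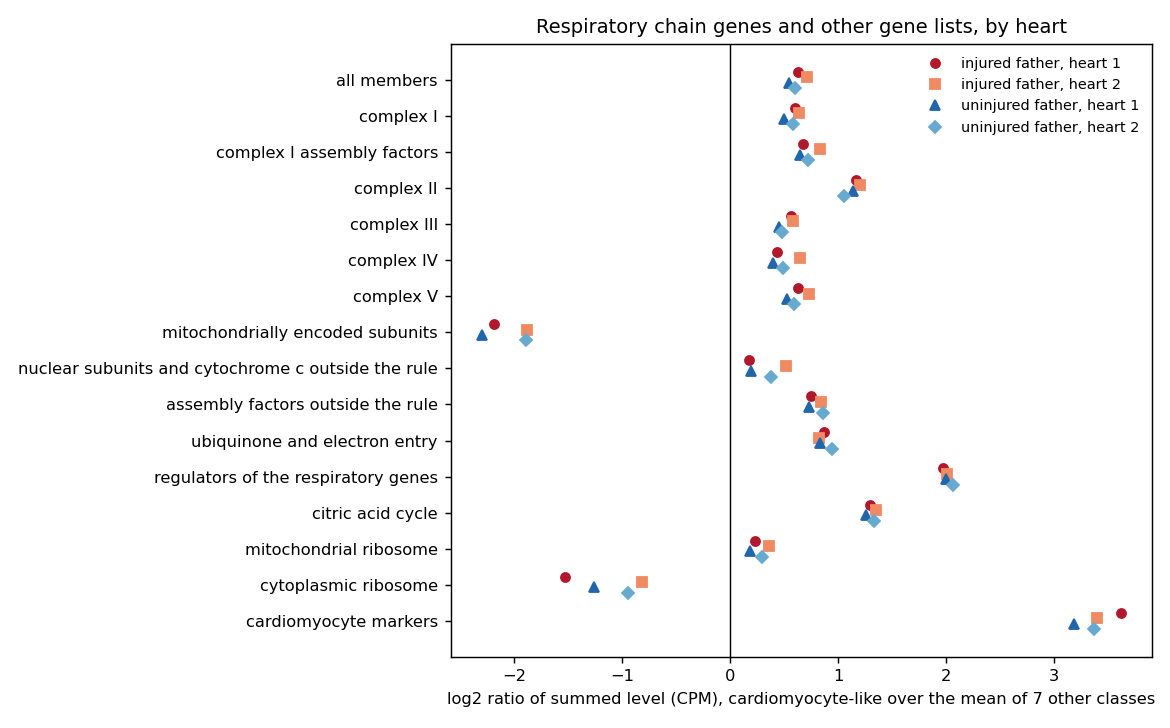
Log2 ratio of cardiomyocyte-like nuclei to the mean of the other 7 classes for the summed level (CPM) of each complex and of each other list of genes, with 1 point per heart. Complex II at 1.14 and the citric acid cycle at 1.31 lie above the other complexes, and the mitochondrially encoded subunits lie at -2.06.

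Cardiomyocyte-like nuclei were themselves not uniform. A cluster of 775 nuclei led by Fgf12, with Nppa and Myl4 (known as genes of atrial muscle) among its leading genes, was set against the 2 large clusters led by Fgf14 (4884 nuclei) and Ankrd1 (3577 nuclei). All members together had 4595 and 4434 CPM in the Nppa and Myl4 cluster of the injured-father hearts and 4492 and 5532 CPM in that of the uninjured-father hearts. The 2 large clusters together had 5298 and 6094 CPM in the injured-father hearts and 5210 and 6408 CPM in the uninjured-father hearts. The log2 difference within a heart was -0.27 ± 0.12 and negative in 4 of 4 hearts. It was similar over the complexes, between -0.23 for complex I and -0.35 for complex IV among the 5 complexes, and -0.37 for the assembly factors.
Of 92 members, 33 were lower in 4 of 4 hearts (35.9%, against 20% of all 14462 genes) and 1 was higher, the long Atp5o row at 0.52 (1.09%, against 14.5% of all genes). The median log2 difference was -0.31 over the members and -0.09 over all genes. In the same clusters the regulators differed by -0.65 ± 0.06, the citric acid cycle by -0.52, the cardiomyocyte markers by -0.26 ± 0.04 and the mitochondrially encoded subunits by 0.04 ± 0.38. Of the other cardiomyocyte-like clusters, the one led by Fgf14 had 5838 ± 585 CPM and that led by Ankrd1 5641 ± 601 CPM (SD, n = 4). Within a heart the Fgf14 cluster was higher in 4 of 4 hearts, by 0.05 ± 0.02 on the log2 scale. The cluster led by Grip1 had 4410 ± 306 CPM, below the mean of the Fgf14 and Ankrd1 clusters in 4 of 4 hearts by a log2 difference of -0.38 ± 0.12.

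The study set offspring hearts of injured fathers against those of uninjured fathers, and the members were followed through that comparison class by class. No member passed an adjusted p of 0.05 (edgeR's quasi-likelihood test with Benjamini-Hochberg adjustment over all genes tested) in any of the 8 classes or in all nuclei together, and DESeq2 called none either. Of all genes tested, 0.00797% passed in cardiomyocyte-like, 0.0161% in fibroblast-like, 0.0496% in pericyte-like and 0.0691% in endocardial-like nuclei. The share was 0% in vascular endothelial-like, macrophage or monocyte-like, B lymphocyte-like and smooth muscle-like nuclei, and 0.101% in all nuclei together. At an unadjusted p under 0.05 there were 1 of 90 members in cardiomyocyte-like, 1 of 89 in fibroblast-like, 3 of 89 in vascular endothelial-like, 7 of 89 in pericyte-like and 2 of 81 in macrophage or monocyte-like nuclei. Of all genes tested, 4.1%, 2.97%, 5.14%, 4.27% and 4.3% were under 0.05 in these classes in the same order. There were 3 of 81 members in endocardial-like, 1 of 28 in B lymphocyte-like, 0 of 45 in smooth muscle-like nuclei and 5 of 92 in all nuclei together, beside 5.12%, 3.79%, 4.69% and 6.99% of all genes. Without injured-father heart 2, the log2 fold change of Cox7a1 in cardiomyocyte-like nuclei was -0.94. With all hearts it was -0.07 ± 0.37 (SE), and the groups overlapped. Its CPM after TMM scaling was 18.1 and 47.5 in injured-father hearts and 28.3 and 41.4 in uninjured-father hearts. In all nuclei together, leaving out the same heart gave -0.69 for Cox7a1, -0.65 for Atp5g1, -0.65 for Ndufv1 and -0.67 for the long Atp5o row. With all hearts the values were -0.10, -0.17, -0.38 and -0.62 in the same order. Without uninjured-father heart 1, the log2 fold change of the long Atp5o row in endocardial-like nuclei was -1.32, against -0.85 with all hearts. In these fits the lone heart of a group is assumed to vary like the others. With 2 hearts against 2, an exact permutation test of a single value cannot give a two-sided p under 0.33.

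In cardiomyocyte-like nuclei the members' sum was 5226 and 5874 CPM in injured-father hearts and 5136 and 6355 CPM in uninjured-father hearts. The difference of the mean log2 values was -0.04 with a pooled SD of 0.18, and the groups overlapped. This held for each complex, with differences between -0.03 for complex I and -0.08 for complex IV. Of 90 members tested, 41 had a positive and 49 a negative log2 fold change, with a median of -0.01. Negative were 54.4% of the members and 50.3% of all genes. Members whose father groups lay apart were counted on CPM after TMM scaling, which differ slightly from the CPM printed here. Both injured-father hearts lay above both uninjured-father hearts for 6 members (6.67%, against 15.1% of all genes) and below for 8 (8.89%, against 15.3% of all genes).
Ndufc2, a membrane-arm subunit of complex I, had 28.2 and 29.7 CPM in injured-father hearts and 21.5 and 25.9 CPM in uninjured-father hearts. Its log2 fold change was 0.31 ± 0.16 (SE) with an unadjusted p of 0.0878 and an adjusted p of 1.00 by edgeR. The long Atp5o row had 29.6 and 29.7 CPM in injured-father hearts and 33.6 and 58.9 CPM in uninjured-father hearts, with a log2 fold change of -0.60 ± 0.23 (SE) and an unadjusted edgeR p of 0.0262. Its groups do not overlap, and uninjured-father heart 2 stood far above the other 3 hearts.

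The long Atp5o row was lower in injured-father hearts by fold change in each of the 6 classes in which it was tested. In fibroblast-like nuclei it had 52.4 and 56.8 CPM, against 61.4 and 109.9 CPM in uninjured-father hearts. In macrophage or monocyte-like nuclei it had 70.0 and 78.6 CPM, against 105.7 and 223.5 CPM in uninjured-father hearts, with a log2 fold change of -1.06 and an unadjusted edgeR p of 0.00455. In endocardial-like nuclei it had 35.0 and 38.7 CPM, against 51.6 and 97.2 CPM in uninjured-father hearts, with a log2 fold change of -0.85 and an adjusted edgeR p of 0.712. In each of these classes uninjured-father heart 2 was the highest heart. The classes share the same 4 hearts and are no independent repeats of each other.
Among the paralogs of the vessel wall, Ndufa4l2 in pericyte-like nuclei was 71.7 and 108.7 CPM in injured-father hearts and 121.5 and 140.5 CPM in uninjured-father hearts, a log2 fold change of -0.49 ± 0.18 (SE) with an unadjusted p of 0.0103 and an adjusted p of 0.999 by edgeR. Ndufa4 in the same nuclei was 28.5 and 44.0 CPM in injured-father hearts and 27.0 and 20.9 CPM in uninjured-father hearts, a log2 fold change of 0.60 with an unadjusted edgeR p of 0.0368. Neither passed the adjusted threshold. In smooth muscle-like nuclei Ndufa4l2 had the opposite sign, with a log2 fold change of 0.49 ± 0.61 (SE) and overlapping groups.

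Vascular endothelial-like nuclei had the lowest median fold change of the members among the 8 classes. Of 89 members tested, 77 had a negative and 12 a positive log2 fold change, with a median of -0.17, against -0.01 over all genes tested. Negative were 86.5% of the members and 52.2% of all genes. On CPM after TMM scaling, both injured-father hearts lay below both uninjured-father hearts for 30 members (33.7%, against 18% of all genes). They lay above for 2 (2.25%, against 16.6% of all genes). All 8 members of complex III and all 13 members of complex IV that were tested had negative fold changes. The complex IV sum was 622 and 678 CPM in injured-father hearts and 744 and 834 CPM in uninjured-father hearts, a log2 difference of -0.28 with a pooled SD of 0.10. The sum of all members was 3558 and 3825 CPM in injured-father hearts and 4006 and 4429 CPM in uninjured-father hearts, a difference of -0.19 with a pooled SD of 0.09.
Uqcr11, a small subunit of complex III, had 43.6 and 45.6 CPM in injured-father hearts and 62.4 and 61.0 CPM in uninjured-father hearts, a log2 fold change of -0.43 with an unadjusted p of 0.0112 and an adjusted p of 0.848 by edgeR. Ndufa13, an accessory subunit of complex I, had 33.8 and 34.9 CPM in injured-father hearts and 46.5 and 49.9 CPM in uninjured-father hearts, a log2 fold change of -0.45 with an adjusted edgeR p of 0.874. Of the cytoplasmic ribosome genes, 81 of 92 had negative fold changes in the same nuclei, as did 12 of 13 mitochondrially encoded genes with a median of -0.07. The cardiomyocyte markers summed to 6655 and 7752 CPM in injured-father hearts and 7661 and 8454 CPM in uninjured-father hearts in these nuclei. With no limit on mitochondrial UMIs, the difference of the members' sum turned to 0.05, against -0.19 with the limit of 5%. Their part in the members' fold changes was not tested.

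In the other classes the members' sums differed by -0.06 in fibroblast-like, -0.12 in pericyte-like, -0.13 in macrophage or monocyte-like, -0.18 in endocardial-like, -0.24 in B lymphocyte-like and -0.05 in smooth muscle-like nuclei on the log2 scale. The groups did not overlap in macrophage or monocyte-like, endocardial-like and B lymphocyte-like nuclei. Uninjured-father heart 2 had the highest sum in each of the 8 classes. Without it the difference was -0.12 in vascular endothelial-like, -0.08 in macrophage or monocyte-like, -0.06 in endocardial-like, -0.12 in B lymphocyte-like and -0.001 in pericyte-like nuclei. It was 0.11 in cardiomyocyte-like, 0.04 in fibroblast-like and 0.22 in smooth muscle-like nuclei, above 0. With all hearts, negative fold changes made up 67.9% of members in endocardial-like nuclei (50.1% of all genes). They made up 64.0% in fibroblast-like and in pericyte-like (49.9% each) and 60.7% in B lymphocyte-like nuclei (49.5%). The share was 55.6% in macrophage or monocyte-like (50.9%) and 48.9% in smooth muscle-like nuclei (49.6%). Over all nuclei of a heart, the sum was 4068 and 4449 CPM in injured-father hearts and 4212 and 5054 CPM in uninjured-father hearts, and a change in the share of cell types and a change per nucleus cannot be told apart there.

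**Figure D5:**
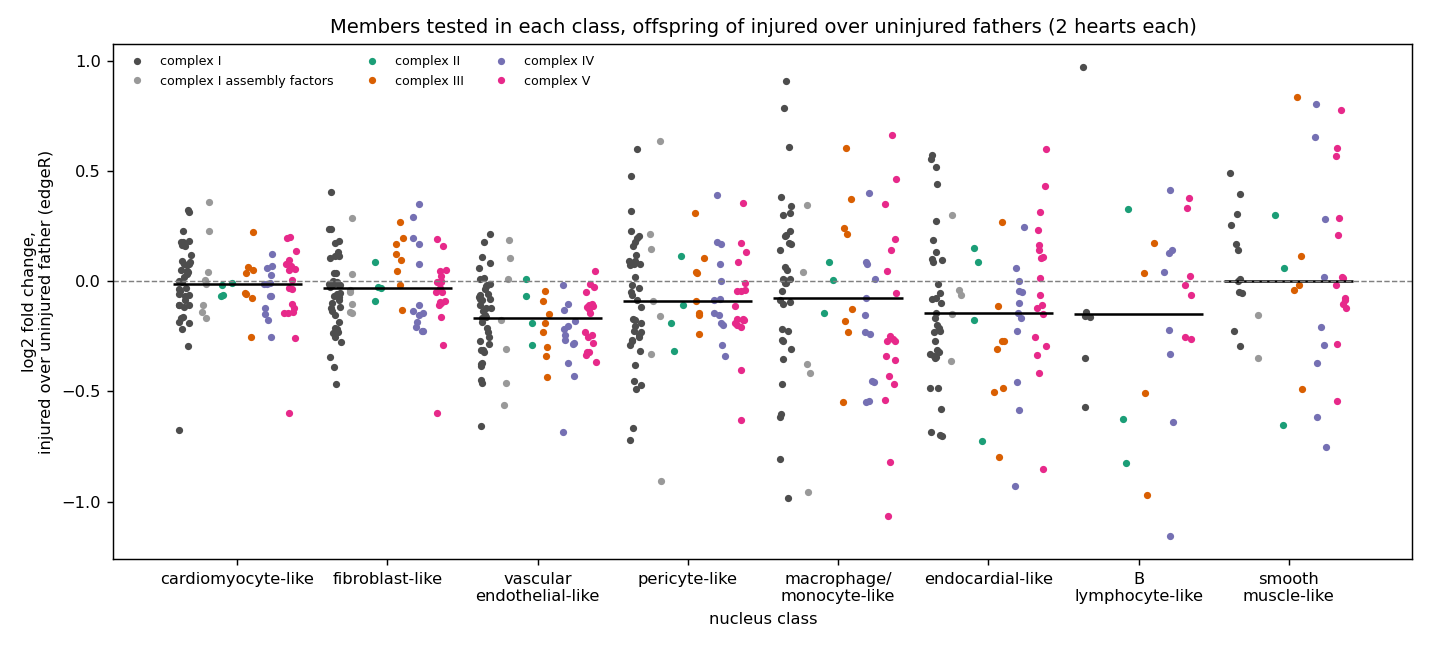
Log2 fold change of injured-father over uninjured-father hearts for the members tested in each of the 8 classes, with 1 point per member, coloured by complex, and a line at the median. The median lies at -0.01 in cardiomyocyte-like nuclei and at -0.17 in vascular endothelial-like nuclei, and no member passed the adjusted threshold.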

How the data were processed

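Per the file headers, the authors used Cell Ranger 6.0.1 to make the deposited files, whose values are UMI counts for each gene in each barcode, not normalized. Seurat 4.0 is named in the submitters' processing notes. No source used here states the genome build, the annotation, or how intronic reads and strand were handled in counting. Gene positions are from GENCODE vM21 (GRCm38), and promoter windows from the RefSeq table for GRCm38.p6.

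Barcodes with at least 500 UMIs, at least 300 genes and under 5% mitochondrial UMIs were kept. Doublets marked by Scrublet (scanpy 1.11.5) were removed. For clustering, each nucleus was scaled to a total of 10000 and logged. Of 3000 variable genes, the members and the mitochondrial genes were taken out, 30 principal components were computed, and Leiden clustering (leidenalg 0.10.2, 20 neighbours, resolution 1.0) gave 26 clusters. A cluster took the name of the marker list with the highest mean fold (20 CPM added to each level, at least 3 markers at 5 CPM or more). Clusters with an unusual depth or mixed markers were left unnamed by a rule made after the clusters were seen.

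Counts were summed per class and heart. Class differences are log2 ratios of CPM within a heart, with a pseudocount of 1 CPM for single genes, and have no test. Father groups were compared with edgeR 4.0.16 (R 4.3.3) by the quasi-likelihood test across all genes (filterByExpr minimum count 10, TMM, group only, Benjamini-Hochberg, two-sided, threshold 0.05). DESeq2 1.42.0 was an alternative. An SE is derived from the test (size of the log2 fold change over the root of F), not fitted. On counts simulated for cardiomyocyte-like nuclei (12584 genes), 93 of 100 genes changed 2-fold and 100 of 100 changed 4-fold were called, with 4 false calls.

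Members and lists were chosen with earlier results of these data known. Named in the text are paralog pairs, catalytic core subunits, the members with the highest and lowest class ratio in each complex, and the members with the smallest p in each class; Ndufa9, the other assembly factors and the members lower in 4 of 4 hearts were named after their values were seen. Some genes that this rule would name are not reported here. Alternatives were other scalings, filters, doublet handling, mitochondrial limits, depth limits, denominators and clusterings, a replicate block, and leaving out each heart.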

Additional observations from a re-analysis of the deposited data

Results flagged for a closer look

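The summed level of complex IV in endocardial-like nuclei was flagged because 1 heart lay far from the other 3. It was 409 and 405 CPM in injured-father hearts and 404 and 566 CPM in uninjured-father hearts, the high value being uninjured-father heart 2. The gap, as a part of the whole range, exceeds Dixon's 95% critical value for 4 values. Of 71 sets of 4 hearts examined this was the 1 flagged, and chance flags about 1 in 20 such sets.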

How the results depend on the processing

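The ratios of cardiomyocyte-like nuclei to the other classes for the summed members and for each complex kept their sign under the alternatives run; ratios of single genes, paralog pairs and other lists were not recomputed. With no limit on mitochondrial UMIs the ratio was 0.51 for all members, 0.49 for complex I, 0.39 for complex III, 0.35 for complex IV and 0.49 for complex V, and with a limit of 1% it was 0.78, 0.72, 0.71, 0.74 and 0.80 in the same order. Complex II stood at 1.06 with doublets kept, against 1.14 without them. With no mitochondrial limit the father difference of all members turned to 0.054 in vascular endothelial-like nuclei and was -0.042 in macrophage or monocyte-like nuclei, and the mitochondrial share was 0.275% in cardiomyocyte-like, 1.16% in fibroblast-like, 1.19% in vascular endothelial-like, 0.955% in pericyte-like, 0.912% in macrophage or monocyte-like, 2.51% in endocardial-like, 1.59% in B lymphocyte-like and 0.967% in smooth muscle-like nuclei and 0.886% in all nuclei. With doublets kept it was 0.273% in cardiomyocyte-like nuclei.

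The count of members past the threshold with injured fathers was 0 in every class by every tool and setting except these: 1 in macrophage or monocyte-like nuclei with no filter on low counts, 1 there and 1 in all nuclei with a replicate block (the long Atp5o row in each case), and, when 1 heart was left out, 0 to 1 in cardiomyocyte-like, 0 to 1 in endocardial-like and 0 to 4 in all nuclei. Correlations between the deviations of same-numbered hearts were low (-0.010 to 0.088). The members' sum was nevertheless higher in the higher-numbered heart of both father groups in every class tested and in all nuclei together. Low correlations therefore cannot settle whether the numbers pair the hearts.

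The count of all genes past the threshold depended on the setting. It was 1 in cardiomyocyte-like, 2 in fibroblast-like, 0 in vascular endothelial-like, 5 in pericyte-like, 0 in macrophage or monocyte-like, 6 in endocardial-like, 0 in B lymphocyte-like and 0 in smooth muscle-like nuclei and 15 in all nuclei. With no filter on low counts the counts were 172, 37, 49, 17, 35, 45, 2, 12 and 196 in that order, and with the replicate block 49, 10, 9, 2, 18, 37, 1, 6 and 210. DESeq2 called 20 in cardiomyocyte-like, 6 in fibroblast-like, 2 in vascular endothelial-like, 3 in endocardial-like, 1 in smooth muscle-like and 98 in all nuclei, and edgeR with DESeq2's size factors called 3 in endocardial-like nuclei. With doublets kept there were 2 each in cardiomyocyte-like, vascular endothelial-like and pericyte-like nuclei and 3 in endocardial-like nuclei. A limit of 1% gave 2 in cardiomyocyte-like, 0 in fibroblast-like, 2 in vascular endothelial-like, 11 in endocardial-like and 1 in B lymphocyte-like nuclei. No mitochondrial limit gave 2 in cardiomyocyte-like, 1 in fibroblast-like and 10 in endocardial-like nuclei, and a minimum of 1000 UMIs gave 3 in pericyte-like nuclei. When 1 heart was left out, the counts ran from 0 to 126 in cardiomyocyte-like, 0 to 139 in fibroblast-like, 9 to 56 in vascular endothelial-like, 13 to 29 in pericyte-like, 1 to 49 in macrophage or monocyte-like, 37 to 68 in endocardial-like, 0 to 14 in B lymphocyte-like and 3 to 34 in smooth muscle-like nuclei and 0 to 542 in all nuclei. The cause of these differences was not tested. With 28 and 45 members tested in B lymphocyte-like and smooth muscle-like nuclei, depth limits what can be seen there.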
